A study of Rattus norvegicus with 6 samples.

Results

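The genes described here encode the shared framework of basement membranes: the collagen IV chains Col4a1, Col4a2, Col4a3 and Col4a5, the laminin subunits Lama5, Lamb2 and Lamc1, and the linking and proteoglycan components Nid1, Hspg2 and Agrn. They were taken by name from the platform annotation of the array, as all probe sets with exactly 1 gene symbol and that symbol among the 10. In total 9 of the 10 genes had a probe set, and Col4a3 had none and was not measured. The 9 genes were covered by 14 of the 31042 probe sets used, and each gene was represented by its probe set of highest mean signal over the 6 arrays. All 9 of these main probe sets lay above the filter on low signals, and so did 3 of the 5 further ones.

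Whole-kidney RNA came from adult male rats of 2 inbred strains, 3 rats and 3 Affymetrix arrays per strain. The S rats were Dahl salt-sensitive SS/Jr, the parental strain. The congenic rats were S.LEW(D1MCO4x1x3Bx1), which carry a Lewis segment of chromosome 1 on the S background, so that both groups share that background. By its title, the series belongs to positional work on Adamts16 and inherited hypertension, and the comparison asks how gene expression differs between congenic and S kidneys. The labels used here do not give the diet, exact age or blood pressure of these rats, and the congenic group is 1 strain. By current gene order (RefSeq, assembly GRCr8), none of the 10 genes lies on chromosome 1: Col4a1 and Col4a2 are on chromosome 16, Col4a3 on 9, Col4a5 on X, Lama5 on 3, Lamb2 on 8, Lamc1 on 13, Nid1 on 17, and Hspg2 and Agrn on 5.

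A basement membrane is a thin sheet of matrix under epithelia and endothelia. In it a polymer of laminin trimers and a network of collagen IV trimers are bridged by nidogen and by the heparan sulphate proteoglycans perlecan and agrin. The collagen IV of most basement membranes combines the products of Col4a1 and Col4a2. The mature glomerular filter, a joint product of podocytes and endothelial cells, instead uses a trimer of the Col4a3, Col4a4 and Col4a5 products, and its laminin joins Lama5, Lamb2 and Lamc1. Loss of Col4a3, Col4a4 or Col4a5 causes Alport syndrome, and loss of Lamb2 causes congenital nephrotic syndrome in Pierson syndrome.

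The collagen IV genes lie head to head in pairs, each pair transcribed outwards from 1 shared stretch. The stretch is shown for Col4a1 and Col4a2, whose signals are compared as a pair further on, and for Col4a3 and Col4a4, of which Col4a4 had a probe set. The sequences are RefSeq's (GRCr8), read on the plus strand, with the GC box letters GGGCGG or their complement CCGCCC in capitals. The first covers all 76 bases between the starts of Col4a2 and Col4a1 (chr16:84885521-84885596). The second covers 88 of the 412 bases between the starts of Col4a4 and Col4a3 (chr9:91323740-91323827).
Col4a1/Col4a2: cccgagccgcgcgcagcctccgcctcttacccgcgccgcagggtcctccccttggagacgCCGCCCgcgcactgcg
Col4a3/Col4a4: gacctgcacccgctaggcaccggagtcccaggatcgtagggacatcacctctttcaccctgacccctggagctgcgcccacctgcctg

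The first stretch held 1 GC box and the second held none. Upstream sequence is shown next for 3 members of separate promoters whose strain differences went in different directions or sizes: Lama5 (chr3:187695975-187696224, minus strand), Lamc1 (chr13:68051987-68052236, minus strand) and Hspg2 (chr5:154960596-154960817, plus strand). Each is given 5′ to 3′ on its gene's strand, ends before the outermost annotated start of the gene and has the same letters in capitals.
Lama5: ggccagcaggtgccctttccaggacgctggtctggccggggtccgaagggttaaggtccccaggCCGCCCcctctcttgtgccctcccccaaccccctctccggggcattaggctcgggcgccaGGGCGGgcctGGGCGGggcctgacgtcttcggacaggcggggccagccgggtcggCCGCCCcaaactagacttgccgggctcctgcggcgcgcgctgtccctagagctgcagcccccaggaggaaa
Lamc1: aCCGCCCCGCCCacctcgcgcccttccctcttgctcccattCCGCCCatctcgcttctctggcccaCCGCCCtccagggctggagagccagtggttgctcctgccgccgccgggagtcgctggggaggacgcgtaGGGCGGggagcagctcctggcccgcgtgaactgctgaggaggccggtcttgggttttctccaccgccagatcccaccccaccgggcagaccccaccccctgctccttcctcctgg
Hspg2: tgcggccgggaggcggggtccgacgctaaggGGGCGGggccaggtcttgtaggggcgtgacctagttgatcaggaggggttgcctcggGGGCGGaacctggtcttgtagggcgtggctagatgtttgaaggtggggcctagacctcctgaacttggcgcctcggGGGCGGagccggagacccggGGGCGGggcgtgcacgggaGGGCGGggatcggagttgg

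These stretches held 4 GC boxes for Lama5, 5 for Lamc1, of which 2 overlap by 1 base, and 5 for Hspg2. In RefSeq's windows of 250 bases before to 50 bases after a start, 8 of the 9 members listed there held GGGCGG on either strand, against 33.1% of 33469 windows. Agrn was the member without it, and Lamb2 was not in the table. CCAAT occurred in 3 of the 9 (Col4a1, Col4a2 and Nid1), against 37.5% of windows, and TATAAA in 0 of the 9, against 14.2%. The windows of Col4a1 and Col4a2 share 176 bases, so the pair is not independent in these counts. The windows of Col4a5, Nid1, Hspg2 and Agrn follow a start inside the outermost gene model. Letter matches describe these windows and are not binding sites.

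The arrays had median signals of 163 to 178. The beta-actin control's ratio of 3' to 5' signal, which tracks RNA integrity, lay between 1.99 and 2.3 in S and between 1.94 and 2.06 in congenic kidneys, and that of GAPDH between 1.11 and 1.18 and between 1.12 and 1.2. The ratio of the hexokinase control varied more between rats, from 1.83 to 2.74 in S and from 2.09 to 2.78 in congenic kidneys. Kidney identity was checked on markers: Slc34a1, a phosphate transporter of the proximal tubule, read 27259 ± 2726 (SD, n = 3) in S and 30858 ± 2390 in congenic kidneys. Cyp11b1, an adrenal cortex enzyme, read 21.4 ± 28.0 and 31.3 ± 30.8, and it and Star lay under the filter on low signals. The other adrenal cortex markers passed that filter, Cyp11a1 at 220 ± 22.5 and 175 ± 47.1 and Mrap at 363 ± 27.8 and 374 ± 17.7. Among 15521 tested probe sets, 0 (0%) passed limma's adjusted p of 0.05, with a smallest adjusted p of 0.0697, while 10.3% had unadjusted p below 0.05. No member was called, and the smallest adjusted p among the 9 was 0.229. In what follows, signals are scaled probe set intensities, differences are congenic minus S on the log2 scale, and "SE" is limma's standard error. Levels of different probe sets are not comparable with each other. In whole-kidney RNA, fewer cells of a type and less RNA per cell cannot be told apart.

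The 3 collagen IV chains measured among the members all read lower in the congenic kidney. For each of them, every congenic rat lay below every S rat. Col4a1 (probe set 1373245_at), one chain of the collagen IV found in most basement membranes, read 6298, 6159 and 7422 in S rats and 5515, 5257 and 5102 in congenic rats. S replicate 3 stood highest, and the gap between strains lay between 6159 and 5515. The means were 6626 ± 692 and 5292 ± 209 (SD, n = 3), so that S was 1.25-fold higher. The log2 difference was -0.32 (SE 0.09, 95% interval -0.50 to -0.14), with adjusted p = 0.229 in limma.

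Col4a2 (1388494_at), its partner chain, read 3395, 3148 and 3931 in S rats and 3070, 2557 and 2967 in congenic rats. S replicate 3 was again the highest of the 6, and the nearest rats of the 2 strains, at 3148 and 3070, were close. The means of 3491 ± 400 and 2864 ± 271 gave a log2 difference of -0.28 (SE 0.10, interval -0.50 to -0.07, limma adjusted p = 0.346). With each array centred on its median, the Col4a2 values of the strains overlapped.

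The second Col4a1 probe set (1372439_at) read 5617, 4827 and 4909 in S rats and 4398, 4599 and 4574 in congenic rats. Its strains did not overlap either, and its log2 difference of -0.17 (SE 0.08) was smaller than that of the main probe set. In this probe set S replicate 1, not S replicate 3, stood highest.

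Col4a5 (1374705_at), the X-linked chain of the glomerular trimer, had the smallest spread among S rats relative to its mean of the 3 collagen chains. It read 3777, 3638 and 3689 in S rats and 3225, 3143 and 3000 in congenic rats. The lowest S rat, at 3638, lay well above the highest congenic rat, at 3225. The means were 3701 ± 70.5 and 3122 ± 114, a 1.19-fold higher level in S. The log2 difference was -0.25 (SE 0.08, interval -0.41 to -0.08, limma adjusted p = 0.291).

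Col4a4, the other measured chain of that trimer and the head-to-head partner of Col4a3, read 427, 335 and 309 in S rats and 292, 254 and 279 in congenic rats. These values did not overlap, with a log2 difference of -0.37 (SE 0.18) and an interval of -0.75 to 0.02 that includes 0. It was -0.23 (SE 0.19) without S replicate 1, the highest rat. Col4a6, the head-to-head partner of Col4a5, lay under the filter on low signals at 51.5 ± 19.9 in S and 45.3 ± 17.5 in congenic kidneys.

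**Figure D1:**
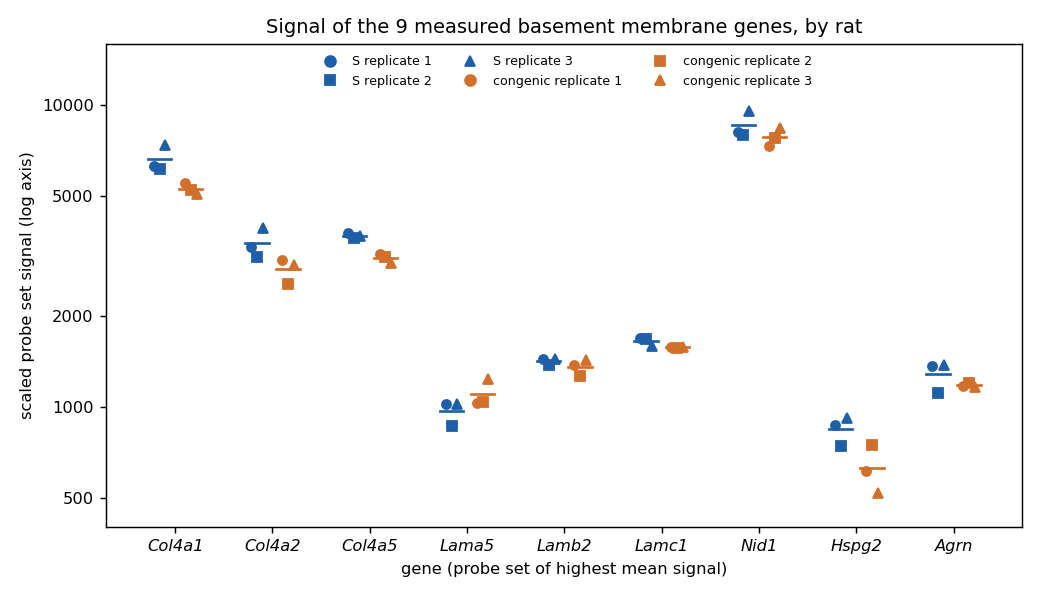
Scaled signal (log axis) of the main probe set of each of the 9 measured genes in 3 S rats (blue) and 3 congenic rats (orange). Symbols mark the replicate and horizontal lines the strain mean. The congenic points of Col4a1, Col4a2, Col4a5 and Lamc1 all lie below the S points, and those of Lama5 all lie above.

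The laminin subunits differed in sign, with Lama5 higher and Lamb2 and Lamc1 lower by their main probe sets. Lama5 (1388932_at), the alpha subunit of the glomerular laminin, was the single member with a positive difference. It read 1025, 861 and 1024 in S rats and 1032, 1037 and 1235 in congenic rats. The strains were parted by a gap of 1025 to 1032, far less than the spread within either strain. The means were 970 ± 94.2 and 1101 ± 116, and the log2 difference was 0.18 (SE 0.12, interval -0.06 to 0.43, limma adjusted p = 0.606). After quantile normalisation or cyclic loess the Lama5 values of the strains overlapped. Its further probe sets lay under the filter on low signals, with log2 differences of 0.06 (SE 0.31) and 0.90 (SE 0.50). The difference was 0.10 when S replicate 2 was left out, again 0.10 when congenic replicate 3 was, and 0.38 as the mean of all 3 probe sets.

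Lamb2 (1367880_at), the beta subunit, read 1441, 1378 and 1438 in S rats and 1373, 1267 and 1436 in congenic rats. The strains overlapped. Its log2 difference was -0.06 (SE 0.09, interval -0.27 to 0.14), and it was 0.01 with each array centred on its median.

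Lamc1 (1371322_at), the gamma subunit that most laminins share, read 1691, 1681 and 1592 in S rats and 1585, 1563 and 1576 in congenic rats. Every congenic rat was below every S rat, but the gap of 1592 to 1585 was small and the log2 difference was -0.07 (SE 0.09, interval -0.26 to 0.12, limma adjusted p = 0.809). With median centring the Lamc1 values overlapped. The second Lamc1 probe set (1370993_at) read 874, 800 and 923 in S rats and 761, 741 and 711 in congenic rats, without overlap and with a larger log2 difference of -0.23 (SE 0.11).

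Among the linking components, Nid1 gave opposite signs on its probe sets. Nid1 encodes nidogen 1, which bridges laminin and collagen IV. Its main probe set (1371518_at) read 8157, 8006 and 9603 in S rats and 7336, 7827 and 8426 in congenic rats, with overlap and a log2 difference of -0.12 (SE 0.09), which was -0.04 without S replicate 3. Its second probe set (1371032_at) read 900, 614 and 660 in S rats and 985, 905 and 898 in congenic rats. Here S replicate 1 lay among the congenic values and the other S rats far below them, and the log2 difference was 0.38 (SE 0.14, interval 0.08 to 0.68, limma adjusted p = 0.377). The direction for Nid1 therefore depended on the probe set, and the mean of both probe sets had a log2 difference of 0.13.

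Hspg2 (1371771_at), which encodes the proteoglycan perlecan, had the lowest log2 difference of the 9 genes. It read 872, 742 and 921 in S rats and 613, 745 and 517 in congenic rats. Congenic replicate 2, at 745, lay just above S replicate 2, at 742, and the other congenic rats lay below all S rats. The means were 845 ± 92.6 and 625 ± 115, a 1.36-fold higher level in S. The log2 difference was -0.45 (SE 0.14, interval -0.76 to -0.14, limma adjusted p = 0.302). It ran from -0.58 to -0.32 with 1 array left out.

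Agrn (1370307_at), which encodes agrin, the main heparan sulphate proteoglycan of the glomerular basement membrane, read 1367, 1110 and 1379 in S rats and 1174, 1198 and 1167 in congenic rats. S replicate 2 was the lowest of the 6 and the other S rats were the highest. The log2 difference was -0.12 (SE 0.11, interval -0.34 to 0.11). It was -0.22 without S replicate 2, when the strains no longer overlapped, -0.06 without S replicate 3 and -0.07 without S replicate 1.

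**Figure D2:**
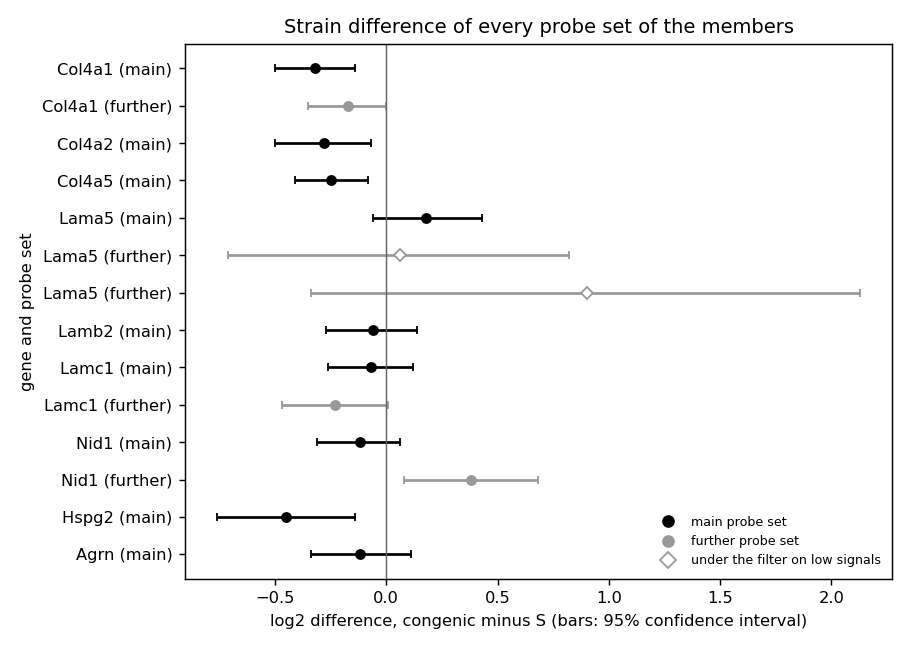
Log2 difference, congenic minus S, of all 14 probe sets of the 9 genes, with limma's 95% confidence interval (n = 3 per strain). Black points are the main probe sets, grey points the further ones, and open diamonds lie under the filter on low signals. The intervals of the main probe sets of Col4a1, Col4a2, Col4a5 and Hspg2 lie below 0, and the second Nid1 probe set lies above 0.

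Counted together, 8 of the 9 genes had a negative difference, where 51.8% of all tested probe sets did. The median of the 9 was -0.12 against -0.01 over all tested probe sets. Among the 8 were Nid1, at 0.13 as the mean of its probe sets, and Lamb2, at 0.01 with median centring. Unadjusted p below 0.05 with a lower congenic level was reached by 4 of the 9 (Col4a1, Col4a2, Col4a5 and Hspg2), against 5.61% of all tested probe sets, and with a higher level by 0, against 4.72%. All congenic rats lay below all S rats in 4 of the 9 (Col4a1, Col4a2, Col4a5 and Lamc1), against 7.99%, and above them in 1 (Lama5), against 7.98%. The 9 genes are few and were chosen with earlier results in view, so these shares describe them and do not test them. The count of 4 without overlap was 7 without S replicate 2 and 2 with median centring, which retained Col4a1 and Col4a5. With 1 array left out, fewer rats are compared and strains separate more readily. The share over all probe sets was not computed for either setting. The count at unadjusted p below 0.05 and lower was also 2 with median centring, here Col4a1 and Hspg2. Lama5 had unadjusted p = 0.0444 in limma with median centring, in the higher direction. Under that setting the median over all tested probe sets was 0.06, against -0.01 without it. The share of all probe sets at unadjusted p below 0.05 was not computed for it. The exact permutation test of a single gene, 2-sided, cannot give less than p = 0.1 with 3 against 3, and it gave that value for Col4a1, Col4a2, Col4a5, Lama5 and Lamc1.

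The rats of a strain did not deviate alike. S replicate 3 had the highest signal of all 6 rats in 5 of the 9 genes and a median log2 deviation from the gene's own mean of 0.17. S replicate 1 had 0.09 and S replicate 2 was near 0, with 5 of 9 genes below their mean. Each congenic rat had a median deviation of -0.07. Without S replicate 3 the log2 difference was -0.24 for Col4a1, -0.20 for Col4a2 and -0.25 for Col4a5, and the strains still did not overlap for these 3 chains.

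Whether partner chains differed by unequal amounts was examined as a log2 ratio within each array, of which only the difference between strains is read. Of 6 pairs planned, 4 could be measured, and p-values of the 2-sided exact permutation test were adjusted over these 4. For Col4a1 relative to Col4a2 the ratio differed between strains by -0.04, with SDs of 0.04 in S and 0.13 in congenic rats, and the strains overlapped (permutation p = 0.8, adjusted p = 0.9). Lama5 relative to Lamb2 was higher in every congenic rat than in every S rat, by 0.25 (SDs 0.11 and 0.10; permutation p = 0.1, the smallest possible, adjusted p = 0.2). Lama5 relative to Lamc1 was likewise higher by 0.25 without overlap (SDs 0.17 and 0.15; permutation p = 0.1, adjusted p = 0.2). Lamb2 relative to Lamc1 differed by 0.01 (SDs 0.07 and 0.08; permutation p = 0.9, adjusted p = 0.9). For Lama5 relative to Lamc1 the nearest rats, S replicate 3 and congenic replicate 1, deviated by 0.01 and 0.03, so the gap was small. That difference was 0.16 without S replicate 2 and 0.53 as a mean of all probe sets, and Lama5 relative to Lamb2 was 0.44 as a mean of all probe sets, which includes those of Lama5 under the filter on low signals. Across the collagen IV networks, in pairs added after the data were seen, Col4a1 relative to Col4a5 differed by -0.07, Col4a1 relative to Col4a4 by 0.05 and Col4a4 relative to Col4a5 by -0.12, all with overlap.

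**Figure D3:**
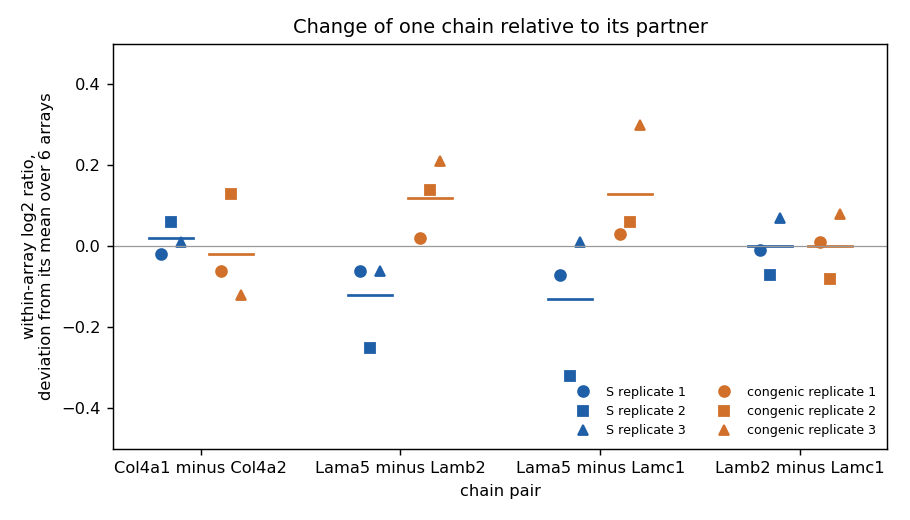
Log2 ratio of one chain to its partner within each array, as the deviation from its mean over the 6 arrays, for 4 pairs. Symbols are rats (blue S, orange congenic) and lines strain means. Lama5 relative to Lamb2 and to Lamc1 is higher in all 3 congenic rats, and the ratios of Col4a1 to Col4a2 and of Lamb2 to Lamc1 overlap.

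Markers of the cells that make these membranes were read beside the members. Each summed signal is weighted towards the probe sets of highest signal in its list. How often sums of this kind separate the strains was not computed. The summed signal of 7 smooth muscle, mesangial and fibroblast markers was 11034 to 11654 in S and 10380 to 10708 in congenic kidneys, without overlap. This holds for the sum, to which Dcn, at 5681 ± 621 and 5308 ± 323, adds the most, and in 0 of the 7 genes did every congenic rat lie below every S rat. Of the 7, 5 had a negative difference, with a median of -0.09. Acta2, the smooth muscle actin gene, had -0.36, whereas Gata3 had 0.38 and Tagln 0.03. The summed signal of 6 podocyte markers was 4927 to 5250 in S and 4738 to 5150 in congenic kidneys, and that of 8 endothelial markers 10657 to 11592 and 10370 to 10772, both with overlap. Of the 6 podocyte markers, 3 had a negative and 3 a positive difference, with a median of -0.01. Among them Tcf21, a transcription factor gene, had -0.26 (SE 0.10, limma adjusted p = 0.42), with every congenic rat below every S rat. Of the 8 endothelial markers, 4 had a negative and 4 a positive difference, with a median of -0.06. Every congenic rat lay above every S rat in 2 of them, Vwf at 0.63 (SE 0.21, limma adjusted p = 0.305) and Pecam1 at 0.15 (SE 0.12). Ehd3 had -0.42 (SE 0.20) and Flt1 -0.32 (SE 0.18), each with overlap. All measured genes of these 3 lists passed the filter on low signals. The part of cell composition in the collagen differences was not tested. The sums of 3 erythrocyte markers, 17153 to 23735 and 12036 to 18426, and of the proximal tubule list, 76673 to 84728 and 83791 to 88844, overlapped as well. All 3 erythrocyte markers had a negative difference, with a median of -0.42, -0.42 (SE 0.16) for Hbb and -0.55 (SE 0.21) for Alas2, each with overlap, and the part of blood content was not tested. The other sums also overlapped: 39950 to 48224 and 44193 to 50219 for loop of Henle and distal tubule, 11172 to 13810 and 12327 to 14447 for collecting duct, 15377 to 16836 and 16514 to 18717 for leukocytes, 1251 to 1363 and 950 to 1496 for adipocytes, and 598 to 706 and 537 to 749 for adrenal cortex.

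Beyond the members, 5 lists of related genes were read, of which 80 of 88 genes had a probe set and 63 passed the filter on low signals. None of the 63 was called at adjusted p 0.05 in limma. At unadjusted p below 0.05, 4 of the 63 were lower (6.35%, against 5.61% of all tested probe sets) and 1 was higher, against 4.72%. Every congenic rat lay below every S rat in 9 of the 63 (14.3%, against 7.99% of all tested probe sets). Every congenic rat lay above every S rat in 5 (7.94%, against 7.98%). Genes named from each list were picked by smallest unadjusted p. The remaining collagen IV and laminin chains had 2 of 7 tested genes negative and a median of 0.10. Besides Col4a4, the laminin beta 1 gene Lamb1, the beta subunit of the immature glomerular basement membrane, read 1720 ± 224 in S and 1858 ± 75.4 in congenic kidneys with a log2 difference of 0.12 (SE 0.10). The laminin gamma 3 gene Lamc3 had 0.17 (SE 0.12), and its strains did not overlap. With 1 array left out, Lamb1 was 0.05 without S replicate 3 and 0.22 without S replicate 1, and Lamc3 was 0.10 without S replicate 2.

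The other basement membrane components had 4 of 7 tested genes negative and a median of -0.11. Sparc, a matrix protein that binds collagen IV, read 5310, 5045 and 8054 in S rats and 4708, 4067 and 4157 in congenic rats. S replicate 3 stood far above the other rats, and the log2 difference of -0.48 (SE 0.14, limma adjusted p = 0.261) was -0.27 (SE 0.09) without it. A second Sparc probe set had a difference of the other sign, 0.11, from 3996 to 4305. Nid2, the second nidogen gene, read 2545, 2554 and 2555 in S rats and 2339, 2472 and 2178 in congenic rats, a log2 difference of -0.13 (SE 0.08) without overlap. Col15a1, a collagen of vascular and muscle basement membranes, had 0.30 (SE 0.22) with overlap, and 1 rat moved it widely. Dropping congenic replicate 1 gave 0.07 and dropping S replicate 3 gave 0.12, whereas dropping S replicate 1 gave 0.47 and dropping congenic replicate 3 gave 0.54. The further tested Col15a1 probe set had 0.16 with overlap.

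Genes of collagen processing and cross-linking had 11 of 17 tested genes positive and a median of 0.10. Serpinh1, the collagen chaperone HSP47, went the other way. It read 4932, 4446 and 4433 in S rats and 3937, 3984 and 4191 in congenic rats. The strains did not overlap, and the log2 difference was -0.19 (SE 0.08, limma adjusted p = 0.438). Lox, a lysyl oxidase that cross-links collagen, had -0.38 (SE 0.22) without overlap, and the prolyl 3-hydroxylase family gene P3h3 had 0.39 (SE 0.21) with overlap. P3h3 was 0.25 when congenic replicate 2 was dropped and 0.61 for congenic replicate 1, and Lox was -0.25 without S replicate 2.

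Of the 19 receptor and adhesion genes tested, 11 were negative and the median was -0.02. Itga6, the laminin-binding integrin alpha 6, read 3830, 3658 and 3295 in S rats and 4044, 5164 and 3929 in congenic rats, a log2 difference of 0.28 (SE 0.10, limma adjusted p = 0.385), while its further tested probe sets had -0.00 and 0.06. Without congenic replicate 2, the highest rat, the difference of Itga6 was 0.15. Itga8, an integrin alpha subunit of mesangial and stromal cells, read 270, 248 and 316 in S rats and 185, 200 and 226 in congenic rats, a log2 difference of -0.45 (SE 0.20, limma adjusted p = 0.457). Parva, which encodes the integrin-linked adaptor alpha-parvin, had -0.24 (SE 0.10). Its congenic values were 1744, 1989 and 1491 and its S values 1993, 2094 and 2044, so that the nearest rats of the strains almost met, and the difference was -0.13 without congenic replicate 3. The further tested Parva probe set had -0.10 with overlap.

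The enzymes that build and edit the heparan sulphate chains of perlecan and agrin had 7 of 13 tested genes negative and a median near 0. Hs2st1, a 2-O-sulphotransferase, had 0.19 (SE 0.10) without overlap, while its further tested probe sets had -0.37 and 0.17. Ext1, a chain polymerase, had 0.33 (SE 0.19) with overlap, which became 0.14 when congenic replicate 1 was dropped or 0.55 when congenic replicate 3 was. A further Ext1 probe set, under the filter on low signals, had the other sign at -1.12 with overlap. Hs6st1, a 6-O-sulphotransferase, had -0.29 (SE 0.19) with overlap, which became -0.16 when S replicate 3 was dropped, -0.17 for congenic replicate 3 and -0.48 for S replicate 2.

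**Figure D4:**
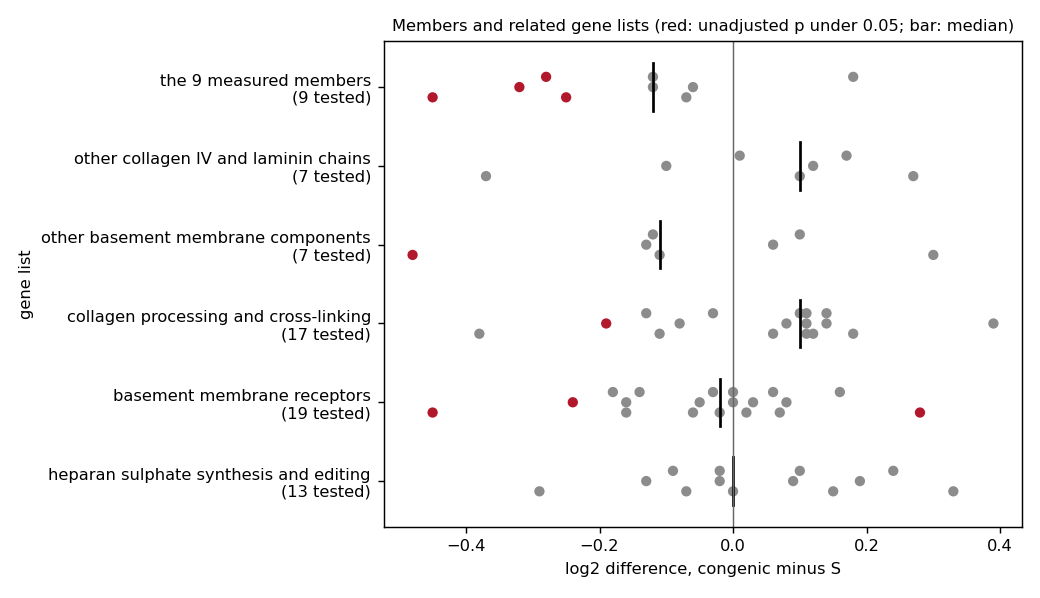
Log2 difference, congenic minus S, of each tested gene in the 9 members and in 5 related lists, 1 point per gene. Red points have unadjusted p below 0.05 in limma and black bars are list medians. The median of the members is -0.12, and those of the other lists lie between -0.11 and 0.10.

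Profiles most like those of Col4a1 and Lama5 over the 6 arrays were sought by the root mean square difference of log2 signals, each centred on its own mean. For Col4a1 these were Slc4a2 (0.042), an anion exchanger gene, Man2a1 (0.045), which encodes a Golgi mannosidase, and Cideb (0.049). Of 12419 named probe sets, Col4a2, at 0.083, was the 81st nearest and Col4a5, at 0.095, the 144th, while Lama5, at 0.286, was the 8966th. For Lama5 the nearest were C1h19orf12 (0.043), Trappc12 (0.046) and Septin9 (0.048), a cytoskeletal septin gene. No such search was possible for Col4a3.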

How the data were processed

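The values analysed were probe set intensities on a linear scale, deposited by the authors; the submitters' processing notes name GCOS 1.4. Its settings, detection calls and any genome build: not given in the sources used here. All arrays of deposited intensities had the same trimmed mean, 500.2, so they had been scaled before deposit. No further normalisation was applied. From 31099 probe sets, 57 controls were left out. Signals were floored at the 10th percentile (12.3) and log2-transformed. The 15521 probe sets with mean log2 signal above the median were fitted with limma 3.58.1 in R 4.3.3 (eBayes with intensity trend, Benjamini-Hochberg over all of them), congenic minus S. The fit was run on simulated data, drawn independently for each probe set, to check that planted differences were estimated at their size. That run says nothing about the members. Probe sets under the filter were read from a fit of all 31042. The number of arrays, 3 per strain, limits the precision: the median standard error was 0.14. Each array was treated as 1 rat.

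Members were named by platform symbol and other genes by symbols updated through Entrez identifiers (20758 of 20826 singly named probe sets matched). Members, lists and tests were chosen with earlier results of these data known. Named were all measured members, the 3 genes of smallest unadjusted p from each of 5 lists, and the 3 nearest profiles for Col4a1 and Lama5. Acta2, Gata3, Tagln, Dcn, Tcf21, Vwf, Pecam1, Ehd3, Flt1, Hbb, Alas2, Slc34a1, Cyp11b1, Cyp11a1, Mrap, Star and Col4a6 were named after their values were seen. Alternatives covered floor, filter, normalisation, variance model, array weights, probe set choice, a block for the number opening each array title, and each array left out. Figures were drawn with matplotlib 3.10.9.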

Additional observations from a re-analysis of the deposited data

How the results depend on the processing

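No paired analysis was possible because the labels give the strains no shared replicate numbers. No member was called at adjusted p 0.05 in limma under any of the 14 settings tried, the block for the title number included. The log2 differences of Col4a1, Col4a2, Col4a5, Lama5, Lamc1, Hspg2 and Agrn kept their sign in all of them, with Lamc1 at -0.00 under median centring. Lamb2 was 0.01 with median centring, and Nid1 was 0.13 as the mean of its probe sets. Cyclic loess gave -0.37 for Col4a1, and medians of all tested probe sets moved by less than 0.1 under each scaling (0.06 with median centring).

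The count of probe sets called over the whole array was 9 with median centring and 0 to 42 with 1 array left out (42 when S replicate 1 was dropped, 6 for congenic replicate 1 and 3 for congenic replicate 3). Members below all S rats numbered 2 with median centring and 4 to 7 with 1 array left out. Fewer rats are compared in the latter, so strains separate more readily. The share over all probe sets was not computed for these settings. Members at unadjusted p below 0.05 and lower numbered 2 with median centring (Col4a1 and Hspg2), where the share over all probe sets was not computed either. The single member above all S rats became 0 with quantile normalisation, and also 0 with cyclic loess.

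The ratio of Col4a1 to Col4a2 differed by 0.04 as a mean of probe sets and by -0.11 to 0.02 with 1 array left out. With 1 array left out, that of Lama5 to Lamb2 ran from 0.18 to 0.30 and that of Lama5 to Lamc1 from 0.16 to 0.32. That of Lamb2 to Lamc1 ran from -0.03 to 0.05 with 1 array left out, that of Col4a1 to Col4a5 from -0.12 to 0.01, that of Col4a1 to Col4a4 from -0.12 to 0.23 and that of Col4a4 to Col4a5 from -0.22 to 0.00. The median of the members was -0.05 with median centring, -0.18 with cyclic loess and -0.22 to -0.10 with 1 array left out. With median centring, the medians were 0.17 for the remaining collagen IV and laminin chains, 0.17 for collagen processing, 0.05 for receptors and 0.07 for heparan sulphate enzymes. The remaining chains had 0.03 without the filter, 0.04 with the title block and 0.01 as a mean of probe sets, collagen processing 0.03 with the title block, and heparan sulphate enzymes 0.05 with cyclic loess. With 1 array left out, the medians ran from 0.04 to 0.14 for the remaining chains, -0.09 to -0.02 for other components, 0.00 to 0.11 for collagen processing, -0.05 to 0.03 for receptors and -0.01 to 0.09 for heparan sulphate enzymes. Median centring moves all log2 signals of an array by 1 amount, so the differences of all probe sets moved alike. The median over all tested probe sets went from -0.01 to 0.06 with it. The cause of the shifts under the other settings was not tested.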
